A study of Homo sapiens with 22 samples.

Results

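The 8 long noncoding RNA genes described across both experiments of the series were MALAT1, NEAT1, KCNQ1OT1, H19, OIP5-AS1, DANCR, TUG1 and PVT1. They were found by symbol, and all 8 were present among the 58870 genes of the siRNA tables and among the 57820 genes of the actinomycin D tables. The RNA came from LS180 and HCT116, which are established human colorectal cancer cell lines. In the siRNA experiment, 2 LS180 libraries had received an siRNA against STAU1 (siSTAU1) and 2 a control siRNA (siCTRL), over 2 periods of 72 h, and mRNA was sequenced. STAU1 encodes Staufen1, a protein that binds double-stranded RNA and can direct bound transcripts to decay. In the actinomycin D experiment, HCT116 and LS180 cells were given 5 µg/ml of actinomycin D, a DNA-binding compound that blocks transcription, and total RNA was sequenced from 3 libraries of each line at 0, 2 and 4 h. No genotype other than the cell line was given for any group. Nothing states that the libraries within a group stem from different cultures, and the p-values therefore reflect the spread between libraries, which may be technical.

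Long noncoding RNAs act as RNA, and where they sit in the cell bears on what they do. MALAT1 collects in nuclear speckles and NEAT1 builds paraspeckles, bodies that form around its long isoform. KCNQ1OT1 stays near the imprinted gene cluster from which it is made. H19, OIP5-AS1 and DANCR are found mostly in the cytoplasm, where H19 also serves as the precursor of the microRNA miR-675 and OIP5-AS1, also called Cyrano, binds and lowers miR-7. TUG1 and PVT1 have been seen in both compartments and were placed in neither class. These compartments are background, as no library of the study was made from a cell fraction.

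All positions are in GRCh38 and come from the GENCODE 29 annotation, matched by Ensembl identifier. MALAT1 lies on the plus strand at chr11:65497688-65506516 and its neighbour NEAT1 on the plus strand at chr11:65422774-65445540. H19 (chr11:1995176-2001470) and KCNQ1OT1 (chr11:2608328-2699994) lie on the minus strand of the same chromosome. OIP5-AS1 lies at chr15:41283990-41309737, DANCR at chr4:52712404-52720351 and TUG1 at chr22:30969245-30979395, each on the plus strand. KCNQ1OT1 lies with all of its 91667 bases opposite the protein-coding gene KCNQ1. OIP5-AS1 overlaps OIP5 by 470 bases on the opposite strand and shares 25725 bases of its strand with another annotated gene. DANCR contains the small nucleolar RNA SNORA26. The library kits kept strand, but the strand setting of the counting is not given in the sources used here, so reads of KCNQ1OT1 and OIP5-AS1 could be shared with those partners.

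The sequence ends of MALAT1 and NEAT1 are shown because both RNAs are cut at their 3′ end by RNase P and keep, in place of a poly(A) tail, an A-rich tract that folds into a triple helix with upstream U-rich stretches. Both lines run 5′ to 3′ on the plus strand of GRCh38, and the capitals mark the runs of 8 or more letters that the last 120 bases of the long NEAT1 isoform share with the last 500 bases of MALAT1-202. The first is bases 8236 to 8355 of MALAT1-202 (chr11:65505997-65506116) and the second is the end of NEAT1-202 (chr11:65445421-65445540).
MALAT1-202: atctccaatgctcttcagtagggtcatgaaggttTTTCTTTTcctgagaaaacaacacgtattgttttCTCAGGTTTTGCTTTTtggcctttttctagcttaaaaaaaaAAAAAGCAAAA
NEAT1-202: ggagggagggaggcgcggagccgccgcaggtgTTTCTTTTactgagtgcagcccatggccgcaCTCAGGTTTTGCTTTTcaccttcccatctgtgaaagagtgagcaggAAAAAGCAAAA
The 3 shared runs came in the same order in both RNAs. Over 200764 annotated transcripts of at least that length, searched on the transcript's own strand, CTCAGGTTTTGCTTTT stood in the last 120 bases of 1, AAAAAGCAAAA in 0.0553% and TTTCTTTT in 1.48%. In MALAT1-202 the annotated transcript runs on past this stretch to base 8708, so the stretch lies outside its last 120 bases. The 1 transcript counted for the longest run is therefore NEAT1-202 itself. These shares are for a shorter window than the 500 bases searched in MALAT1-202.

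NEAT1-202 is 22743 bases long, and the other 7 annotated isoforms of NEAT1 reach at most 3524 bases. The short class ends at a polyadenylation signal, whose AATAAA letters are in capitals in the last 60 bases of NEAT1-208 (chr11:65426454-65426513, plus strand).
NEAT1-208: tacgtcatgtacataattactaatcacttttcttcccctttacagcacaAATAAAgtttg
AATAAA is common, and stood in the last 60 bases of 25.2% of 206435 transcripts. The isoform-weighted lengths given further on can register a shift between the long isoform and shorter ones. NEAT1-208 is among the isoforms counted in the siRNA experiment. In the actinomycin D experiment those counted were NEAT1-201, NEAT1-202, NEAT1-203 and an isoform that is not in GENCODE 29.

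The microRNA sequences behind the cytoplasmic members are shown with their seeds, bases 2 to 8, in capitals, as RefSeq gives them for GRCh38.p14. The miR-675 strands lie inside H19 on the minus strand, at chr11:1996800-1996822 and chr11:1996768-1996787, and the miR-7-5p sequence is shared by the genes at chr9:83969811-83969834 (minus strand) and chr19:4770700-4770723 (plus strand).
hsa-miR-675-5p: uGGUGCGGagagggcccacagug
hsa-miR-675-3p: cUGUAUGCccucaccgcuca
hsa-miR-7-5p: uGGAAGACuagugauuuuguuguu
OIP5-AS1-201: aagaacaacaaaatcaccaatGTCTTCCat
The last of these lines is bases 2866 to 2895 of OIP5-AS1-201 (chr15:41300571-41300600, plus strand), with the letters complementary to the miR-7 seed, GTCTTCC, in capitals. Those letters occurred 3 times in OIP5-AS1-201, and at the site shown a further run of 14 bases was complementary to the rest of miR-7, against 5 and 3 bases at the other sites. GTCTTCC stood somewhere in 11.5% of 206694 transcripts. OIP5-AS1-201 is 8829 bases long and the other 9 isoforms reach at most 1482 bases, and 2 of the 10 held a match.

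The siRNA libraries held 23730047 to 26658699 counts and the actinomycin D libraries 47842278 to 61417810. Levels are given as CPM, counts scaled to library size, after TMM scaling, a scaling that sets the bulk of genes equal between libraries, and levels between genes as TPM, RSEM's abundance per length. Within groups, the chi-square of the counts per degree of freedom between pairs of libraries ran from 2.78 to 109. The LS180 4 h library numbered 1 stood apart from the other 2 (57.2 and 109, against 15.7 between those 2). The HCT116 libraries numbered 1 stood apart at every time, with 25 and 37.7 at 0 h, 34.9 and 29.6 at 2 h and 21.7 and 22.3 at 4 h, against 3.92 to 8.31 between the others. Summed CPM of 6 epithelial markers ran from 8942 to 10022 in siRNA and from 3192 to 4327 in actinomycin D libraries. Among these markers, KRT20 reached at most 1.88 CPM and VIL1 ran from 0.0355 to 254 CPM in actinomycin D libraries. Of the 6 immune markers, CD3E was at 0 in every library and PTPRC reached at most 0.0653 CPM. In siRNA libraries CD68 had 14.8 to 17.9 CPM and CD14 had 2.55 to 4.38 CPM. In LS180, summed CPM of all 6 immune markers was mostly LYZ. This sum was 48.8 to 59.8, 60.9 to 76.7 and 78.6 to 81.6 at 0, 2 and 4 h in LS180. In HCT116 the sum was 0.784 to 1.96. The part of these markers in the LS180 results was not tested. In these bulk samples, fewer cells of a kind and less RNA per cell cannot be told apart.

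The targeted gene was checked first. STAU1 had 9.70 and 9.17 CPM in the siSTAU1 libraries, against 144 and 141 CPM in the siCTRL libraries. It was lower by 3.92 on the log2 scale (log2 fold change -3.92, SE 0.0571, edgeR adjusted p = 2.15e-12), a level 15.1-fold lower in siSTAU1.

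Loss of STAU1 was accompanied by more H19, OIP5-AS1 and DANCR and by less MALAT1 and NEAT1. Of the 7 members that passed the filter on low counts, edgeR called 3 higher and 2 lower in siSTAU1 at an adjusted p under 0.05. In this comparison 46.1% of the 14073 genes tested were called, 23.0% higher and 23.0% lower, which is the background for the 5 of 7 calls. KCNQ1OT1, at 9 and 4 counts in siSTAU1 and 3 and 5 counts in siCTRL, did not pass the filter.

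MALAT1 had 9.74 and 10.1 CPM in siSTAU1 libraries, against 14.7 and 12.6 CPM in siCTRL libraries. Both siSTAU1 values lay below both siCTRL values, and the level was 1.38-fold lower (log2 fold change -0.47, SE 0.0989, edgeR adjusted p = 0.0023). Without siCTRL library 1, MALAT1 (log2 fold change -0.35, adjusted p = 0.0519) and DANCR (0.12, adjusted p = 0.162) were no longer called.
NEAT1 had 7.78 and 6.43 CPM in siSTAU1, against 10.7 and 10.6 CPM in siCTRL. The groups did not overlap, and NEAT1 was 1.5-fold lower (log2 fold change -0.58, SE 0.114, edgeR adjusted p = 0.00138). These levels come from poly(A)-selected RNA, whereas the MALAT1-202 and NEAT1-202 ends shown above carry no poly(A) tail.

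H19 had 39.5 and 39.4 CPM in siSTAU1 libraries, against 14.6 and 14.7 CPM in siCTRL libraries. The groups were far apart and tight, and H19 was 2.69-fold higher (log2 fold change 1.43, SE 0.0660, edgeR adjusted p = 4.18e-08). OIP5-AS1 had 112 and 104 CPM in siSTAU1, against 84.2 and 86.0 CPM in siCTRL, and was 1.27-fold higher (log2 fold change 0.34, adjusted p = 7.64e-05).
DANCR, a snoRNA host gene, had 126 and 129.9 CPM in siSTAU1, against 113 and 118 CPM in siCTRL. Its groups did not overlap and it was 1.11-fold higher (log2 fold change 0.15, adjusted p = 0.00644). All 3 cytoplasmic members were therefore called higher, and both nuclear-retained members that could be tested were called lower. As given above, MALAT1 and DANCR were no longer called without siCTRL library 1. Over all genes tested, 23.0% were called higher and 23.0% lower.

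TUG1 had 134 and 133 CPM in siSTAU1, against 145 and 137 CPM in siCTRL, without overlap and without a call (log2 fold change -0.09, adjusted p = 0.0896). PVT1, which lies beside MYC at chr8:127794533-128101253 on the plus strand, had 3.85 and 3.78 CPM in siSTAU1, against 4.21 and 3.72 CPM in siCTRL, which overlap. Its log2 fold change was -0.06 (adjusted p = 0.793). KCNQ1OT1 had 0.361 and 0.161 CPM in siSTAU1, against 0.111 and 0.209 CPM in siCTRL, and these overlap as well.

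**Figure D1:**
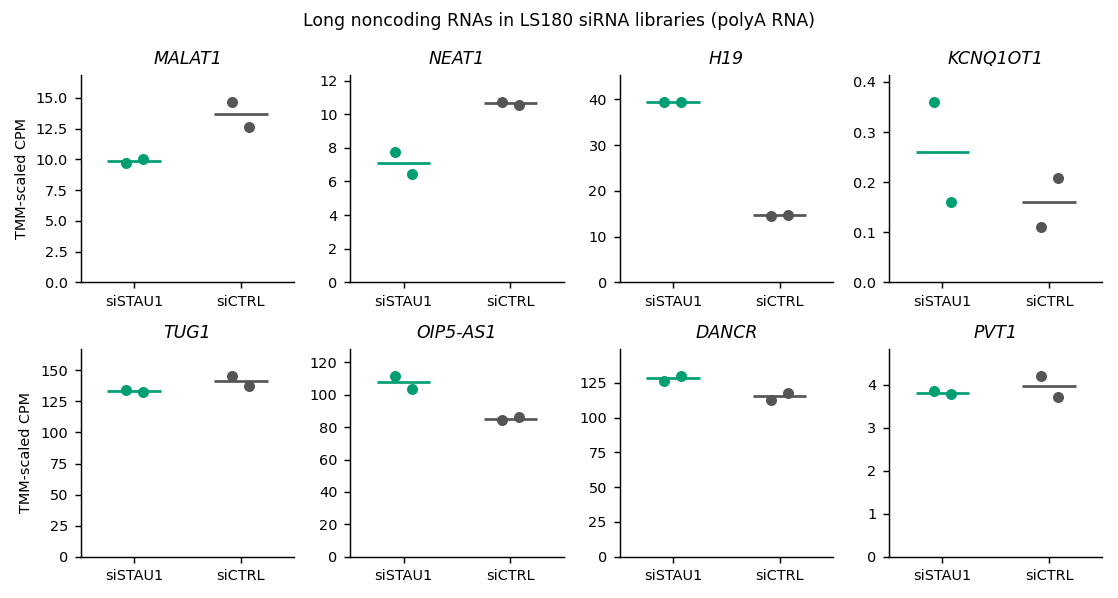
TMM-scaled CPM (linear axes from 0) of the 8 long noncoding RNAs in LS180, with siSTAU1 left of siCTRL; points are libraries and bars the mean of 2. H19 sits at 39.4 to 39.5 CPM in siSTAU1 and 14.6 to 14.7 CPM in siCTRL, and MALAT1 and NEAT1 lie lower in siSTAU1.

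Per length, DANCR was the most abundant member in these libraries, at a mean of 226 TPM in siSTAU1 and 217 TPM in siCTRL. OIP5-AS1 followed with 67.2 TPM in siSTAU1 and 51.0 TPM in siCTRL, and TUG1 with 29.6 TPM in siSTAU1 and 32.8 TPM in siCTRL. H19 came next after TUG1 in siSTAU1, with 28.5 TPM, and after PVT1 in siCTRL, with 13.3 TPM. MALAT1 (4.42 TPM in siSTAU1 and 8.44 TPM in siCTRL) and NEAT1 (2.89 TPM in siSTAU1 and 6.07 TPM in siCTRL) were the lowest members above 0, and KCNQ1OT1 was listed at 0 TPM. In both groups the libraries of neighbouring members in this order did not overlap.

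Genes tied to these RNAs were also counted, where 23.0% of all genes tested were called higher and 23.0% lower in siSTAU1. Of 13 genes for MALAT1 and NEAT1 processing and nuclear speckles, 10 fell and none rose in siSTAU1, with a median log2 fold change of -0.24 against 0.00 over all genes tested. Among them SRRM2 (-0.35, adjusted p = 2.81e-05) and SON (-0.31, adjusted p = 5.27e-05) are the scaffold proteins of speckles. DGCR8, a microRNA-processing factor, had -0.35 and HNRNPC, an RNA-binding protein, -0.20. Of 15 paraspeckle protein genes, 10 fell and 2 rose, with a median of -0.13. EWSR1, an RNA-binding protein, fell by 0.23 on the log2 scale, while NUDT21, a cleavage factor, had a log2 fold change of 0.22. Of the 12 H19 and IGF2 network genes, 8 were tested, of which 2 rose and 4 fell, with MEST at 0.57 and GRB10 at -0.36. IGF2, the gene that shares an enhancer region with H19, reached at most 0.161 CPM in these libraries.

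Genes next to the members gave 7 higher and 3 lower calls among 15 tested of 17, where 23.0% of all genes were higher and 23.0% lower. CDKN1C, an imprinted cell-cycle inhibitor of the KCNQ1OT1 cluster, had a log2 fold change of 1.33 and KCNQ1 one of -0.45. OIP5, which overlaps OIP5-AS1, had 38.7 ± 1.34 CPM in siSTAU1 and 25.9 ± 0.679 CPM in siCTRL (SD, n = 2), a log2 fold change of 0.58. Its rise ran beside that of OIP5-AS1, and its part in the OIP5-AS1 counts was not tested. MYC had a log2 fold change of -0.46. Of 37 other known long noncoding RNAs, 27 were tested, of which 5 rose and 6 fell. UCA1 fell by 1.33 on the log2 scale, while the snoRNA host genes GAS5 (0.43), ZFAS1 (0.52) and SNHG5 (0.65) rose. Over the 1131 other genes that GENCODE 29 marks as lncRNA, 62 rose and 95 fell, with a median of -0.01. Among markers of other cells, summed CPM of 6 fibroblast markers was 15.3 to 16.8 in siSTAU1 and 4.72 to 5.13 in siCTRL, mostly LUM and COL3A1, with COL1A2 at 0. The 6 immune markers summed to 109.5 to 111 CPM in siSTAU1 and 243 to 251 CPM in siCTRL, mostly LYZ with CD3E at 0, and the part of these markers in the members' results was not tested.

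After actinomycin D the members are read relative to the RNA that remained, since CPM add up to a fixed total. In LS180, edgeR called 2 of the 8 members higher and 1 lower at 2 h against 0 h, where 37.4% of the 17256 genes tested were called. At 4 h it called 3 higher and 1 lower, where 57.7% of genes were called. In HCT116 it called 3 higher and 1 lower at 2 h (31.0% of genes called) and 4 higher and 1 lower at 4 h (49.9% of genes called). By direction, 13.5% of genes were called higher and 23.9% lower in LS180 at 2 h and 26.6% higher and 31.1% lower at 4 h. In HCT116 these shares were 13.8% higher and 17.1% lower at 2 h and 26.2% higher and 23.7% lower at 4 h. The split over all genes depended on the scaling. In LS180 at 2 h it was 2329 higher and 4121 lower with TMM, 4863 and 3364 with RLE size factors, and 55 and 5581 when counts were scaled to 82 ribosomal protein genes. At 4 h in LS180 it was 4591 higher and 5365 lower with TMM, 6044 and 4613 with RLE, and 129 and 10689 with ribosomal protein genes. In HCT116, TMM gave 2389 higher and 2957 lower at 2 h and 4524 higher and 4085 lower at 4 h, and ribosomal protein genes gave 33 and 3947 at 2 h and 114 and 7283 at 4 h. The 2 h and 4 h comparisons of a line share their 0 h libraries, so their counts are given side by side only.

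MALAT1 had a higher share of the remaining RNA in both lines at both times. In HCT116 it had 615, 579.6 and 559.7 CPM at 0 h, 958, 896 and 906 CPM at 2 h and 1135, 927 and 909.9 CPM at 4 h. In LS180 it had 261, 309 and 266 CPM at 0 h, 411, 414 and 493 CPM at 2 h and 703, 480.0 and 471 CPM at 4 h. In each line every treated library lay above every 0 h library. The 2 h against 0 h log2 fold change was 0.65 in HCT116 (SE 0.125, edgeR adjusted p = 0.000649) and 0.66 in LS180 (SE 0.126, adjusted p = 0.000412). At 4 h against 0 h it was 0.76 in HCT116 (SE 0.126, adjusted p = 5.95e-05) and 0.98 in LS180 (SE 0.126, adjusted p = 2.13e-06), which are 1.69-fold and 1.98-fold. The LS180 value was 0.90 without the 4 h library numbered 1, and the HCT116 values were 0.66 and 0.69 without the libraries numbered 1. Under scaling to ribosomal protein genes, MALAT1 stayed called at 4 h in LS180 (0.47, adjusted p = 0.0297) but not at 2 h in LS180 (0.43, adjusted p = 0.0807) or in HCT116 at 2 h (0.43, adjusted p = 0.102) and 4 h (0.37, adjusted p = 0.112). That scaling put the median gene at -0.25 and -0.54 in LS180 and at -0.19 and -0.33 in HCT116. Relative to that median, MALAT1 stood at 0.68 and 1.01 in LS180 and at 0.62 and 0.70 in HCT116. A change of scaling shifts all genes by nearly the same amount, so these distances to the median gene are no check on the calls.

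NEAT1 rose in HCT116. It had 12.2, 7.81 and 7.79 CPM at 0 h, 18.8, 14.3 and 16.4 CPM at 2 h and 18.1, 12.5 and 11.3 CPM at 4 h in that line. The 2 h libraries lay above the 0 h libraries, with a log2 fold change of 0.83 (SE 0.194, edgeR adjusted p = 0.00347, 1.78-fold), while the 4 h libraries overlapped the 0 h libraries (0.59, SE 0.195, adjusted p = 0.0172) and the 4 h call was lost under 7 of 16 alternatives. In LS180 it had 15.7, 17.8 and 15 CPM at 0 h, 14.7, 14.7 and 16.1 CPM at 2 h and 23.4, 15.3 and 15.9 CPM at 4 h. These overlap, and neither time was called (-0.09 with adjusted p = 0.751 and 0.18 with adjusted p = 0.449). The LS180 4 h library numbered 1 held the highest value, and without it the 4 h log2 fold change was 0.08 (adjusted p = 0.726). The difference of the 2 h change between the lines, HCT116 minus LS180, was 0.92 (SE 0.271) and did not pass (adjusted p = 0.0554), while DESeq2 called it (0.83, adjusted p = 0.0364), and without the HCT116 libraries numbered 1 it was 1.07 (adjusted p = 0.00408). Under scaling to ribosomal protein genes the HCT116 2 h value was 0.61 and not called (adjusted p = 0.0656). With the effective length as an offset, which turns the counts into a measure per length, the HCT116 2 h value had the opposite sign (-0.59, adjusted p = 0.0529) and the 4 h value was 0.04 (adjusted p = 0.915).

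KCNQ1OT1 fell in HCT116. It had 8.4, 9.54 and 8.32 CPM at 0 h, 6.47, 5.33 and 7.37 CPM at 2 h and 7.08, 5.50 and 5.38 CPM at 4 h. All treated libraries lay below all 0 h libraries, with log2 fold changes of -0.45 at 2 h (SE 0.128, edgeR adjusted p = 0.0120) and -0.54 at 4 h (SE 0.128, adjusted p = 0.0016). The 2 h call was lost without the 0 h library numbered 2 (-0.39, adjusted p = 0.0575) or the 2 h library numbered 2 (-0.36, adjusted p = 0.0576). In LS180 it had 2.72, 3.13 and 2.71 CPM at 0 h, 2.48, 2.17 and 2.10 CPM at 2 h and 3.14, 2.78 and 2.39 CPM at 4 h. The 2 h libraries lay below the 0 h libraries without a call (-0.34, adjusted p = 0.0830), and the 4 h libraries overlapped them (-0.03, adjusted p = 0.869). KCNQ1, on the opposite strand, had 1.28, 1.09 and 1.34 mean CPM at 0, 2 and 4 h in HCT116 and 57.8, 66.9 and 73.2 mean CPM in LS180, so KCNQ1 was far lower in the line with more KCNQ1OT1.

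H19 rose in LS180, where it had 1446, 1432 and 1264 CPM at 0 h, 1649, 1674 and 1843 CPM at 2 h and 1886, 1911 and 1901 CPM at 4 h. The groups followed each other without overlap. The log2 fold change was 0.32 at 2 h (SE 0.0711, edgeR adjusted p = 0.00162) and 0.46 at 4 h (SE 0.0712, adjusted p = 1.85e-05). Under scaling to ribosomal protein genes it was 0.09 at 2 h and -0.08 at 4 h, neither called. Relative to the median gene it was 0.34 and 0.46, as with TMM, because a change of scaling shifts all genes nearly alike. In TPM, H19 in LS180 was 490.3, 422 and 413 at 0 h, 513, 487 and 600.3 at 2 h and 658, 489 and 419 at 4 h, which overlap, with the 4 h library numbered 1 the highest. In HCT116 it had 1.38, 1.14 and 1.18 CPM at 0 h, 1.47, 1.29 and 1.26 CPM at 2 h and 1.66, 1.29 and 1.24 CPM at 4 h, and neither time was called (0.11 with adjusted p = 0.600 and 0.18 with adjusted p = 0.275).

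DANCR rose at 4 h in both lines. In HCT116 it had 43.2, 46.3 and 48.0 CPM at 0 h, 52.7, 55.1 and 54.6 CPM at 2 h and 54.0, 65.0 and 63.6 CPM at 4 h. In LS180 it had 120.2, 122 and 125 CPM at 0 h, 136, 137 and 128 CPM at 2 h and 141, 181 and 182 CPM at 4 h. The treated libraries lay above the 0 h libraries of their line at both times. The log2 fold change in HCT116 was 0.24 at 2 h (adjusted p = 0.0382) and 0.41 at 4 h (adjusted p = 0.00053), and in LS180 0.13 at 2 h (adjusted p = 0.245) and 0.46 at 4 h (adjusted p = 9.99e-05). The 2 h call in HCT116 was lost under 9 of 16 alternatives, among them without the HCT116 libraries numbered 1 (0.22, adjusted p = 0.0961), and without the LS180 4 h library numbered 1 the LS180 4 h value was 0.70 (adjusted p = 9.61e-08). Under scaling to ribosomal protein genes the 4 h values were 0.01 in HCT116 and -0.10 in LS180, neither called. Relative to the median gene they were 0.34 and 0.43, distances that a change of scaling leaves nearly unchanged.

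OIP5-AS1 held steady by CPM in HCT116, with means of 90.6, 90.8 and 90.4 CPM at 0, 2 and 4 h. In LS180 it had 103, 100.5 and 115 CPM at 0 h, 94.5, 96.4 and 96.6 CPM at 2 h and 89.4, 99.9 and 97.8 CPM at 4 h. Both times gave a small fall in LS180 (-0.15 with adjusted p = 0.0387 at 2 h, -0.15 with adjusted p = 0.0243 at 4 h), each lost under 9 of the alternatives run. With the effective length as an offset the sign turned, to 0.19 at 2 h (adjusted p = 0.264) and 0.48 at 4 h (adjusted p = 0.00292) in LS180, and it was 0.55 at 4 h in HCT116 (adjusted p = 0.0013).

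TUG1 was not called at any time in either line. Its mean was 32.9, 32.2 and 32.8 CPM at 0, 2 and 4 h in HCT116 and 74.1, 69.4 and 68.8 CPM in LS180. PVT1 was called in HCT116 at 4 h only, where it had 23.9, 24.4 and 24.1 CPM, against 23.5, 19.3 and 19.6 CPM at 0 h (log2 fold change 0.21, edgeR adjusted p = 0.0369). This PVT1 call was lost under 11 of 16 alternatives and took the opposite sign, uncalled, under scaling to ribosomal protein genes (-0.18). In LS180, PVT1 had means of 7.24, 6.44 and 7.56 CPM at 0, 2 and 4 h and was not called, but without the 4 h library numbered 1 its 4 h value was 0.29 (adjusted p = 0.00694).

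**Figure D2:**
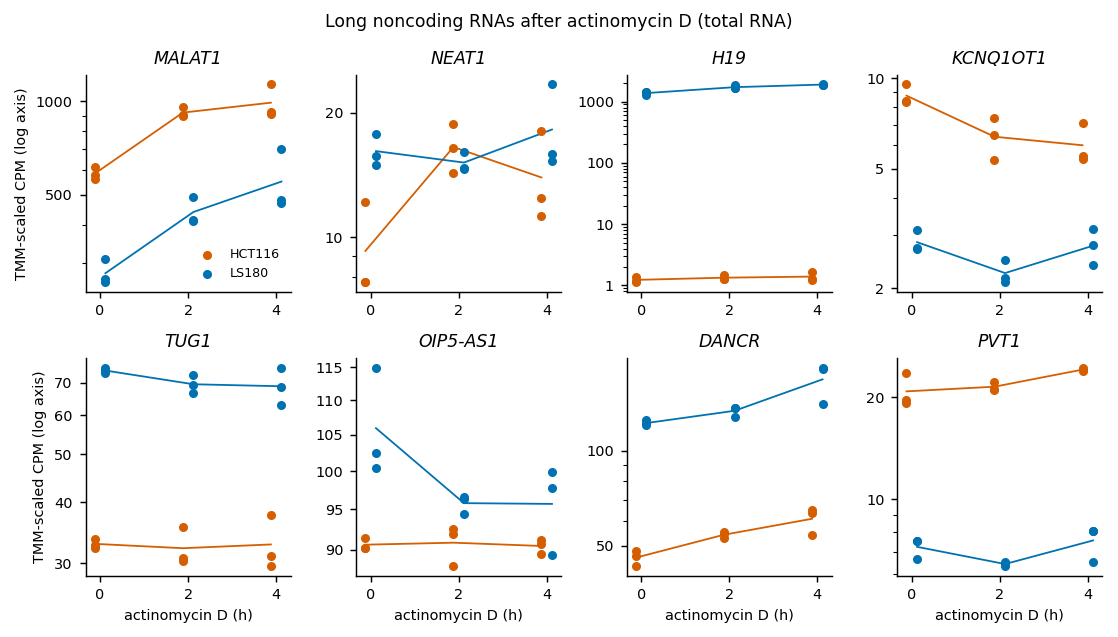
TMM-scaled CPM (log axes) of the 8 long noncoding RNAs against hours of actinomycin D; points are libraries, lines join means of 3, orange HCT116, blue LS180. MALAT1 lies higher after treatment in both lines, at means of 585, 920.1 and 991 CPM at 0, 2 and 4 h in HCT116 and 279, 439.5 and 551 CPM in LS180, and H19 is near 1 CPM in HCT116.

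Between the treated times, only DANCR in LS180 was called, at 4 h against 2 h (log2 fold change 0.33, edgeR adjusted p = 0.00535), where 30.7% of all genes were called. That call was lost with the 4 h library numbered 1 alone (0.08, adjusted p = 0.733). In HCT116 at 4 h against 2 h, 0 of 8 members were called by edgeR or by DESeq2, and 0 had an unadjusted p under 0.05, with 15.8% of all genes called (4.85% higher). Nor was any member called for a difference of the change between the lines, at 2 h (5.64% of genes called, 5.24% higher in HCT116) or at 4 h (13.7% of genes called). For each of these 2 differences 1 member had an unadjusted p under 0.05 and DESeq2 called 1.

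**Figure D3:**
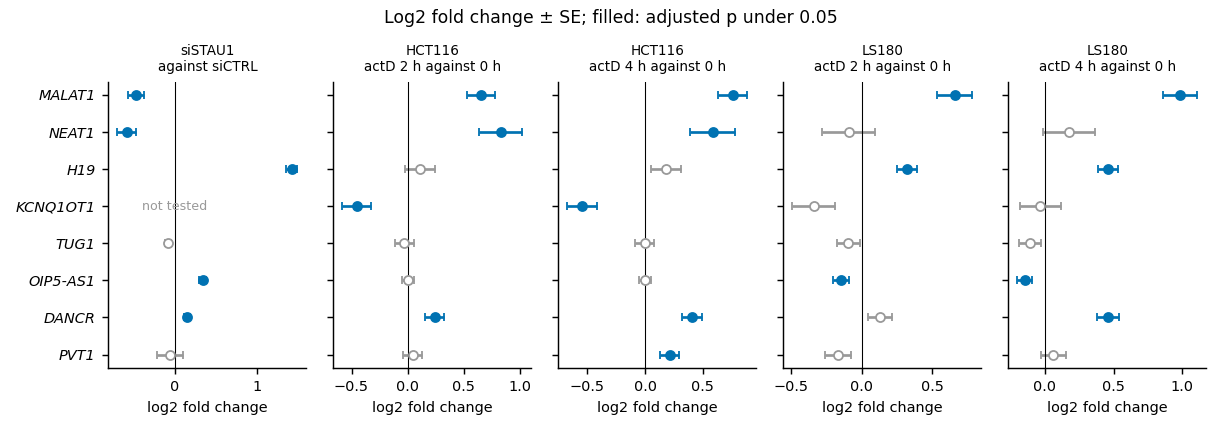
Log2 fold change ± SE of each member by edgeR in 5 comparisons, siSTAU1 against siCTRL and actinomycin D 2 h and 4 h against 0 h in HCT116 and LS180; filled points have an adjusted p under 0.05. MALAT1 is at -0.47 in siSTAU1 and at 0.65 to 0.98 after actinomycin D.

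At 0 h the lines differed in all 8 members, where 76.3% of all genes were called, 33.7% higher and 42.6% lower in HCT116. Scaling to ribosomal protein genes gave 7362 genes higher and 5331 lower, against 5819 and 7343 with TMM. H19 averaged 1.23 ± 0.126 CPM in HCT116 and 1380.3 ± 101 CPM in LS180 (SD, n = 3 each), a level 1110-fold lower in HCT116 (log2 fold change -10.12, SE 0.113, edgeR adjusted p = 2.00e-21). DANCR averaged 45.8 ± 2.41 CPM in HCT116 and 122 ± 2.20 CPM in LS180, and was 2.67-fold lower (adjusted p = 2.1e-11). TUG1 was 2.25-fold lower in HCT116 (32.9 ± 0.767 CPM, against 74.1 ± 0.874 CPM in LS180, adjusted p = 2.09e-10). NEAT1 was 1.73-fold lower (9.26 ± 2.53 CPM in HCT116, against 16.2 ± 1.47 CPM in LS180, adjusted p = 0.00115). OIP5-AS1 was 1.17-fold lower (90.6 ± 0.696 CPM in HCT116, against 106 ± 7.78 CPM in LS180, adjusted p = 0.000829), a call lost under 6 of 16 alternatives and with the opposite sign, uncalled, under scaling to ribosomal protein genes. MALAT1 was 2.10-fold higher in HCT116 (585 ± 28.0 CPM, against 279 ± 26.3 CPM in LS180, adjusted p = 3.58e-07). PVT1 was 2.88-fold higher (20.8 ± 2.34 CPM in HCT116, against 7.24 ± 0.514 CPM in LS180, adjusted p = 8.86e-12), and KCNQ1OT1 3.07-fold higher (8.75 ± 0.681 CPM in HCT116, against 2.85 ± 0.238 CPM in LS180, adjusted p = 3.23e-09). The libraries of the lines overlapped for none of the 8, and the share of all genes without overlap was not worked out. With 76.3% of all genes called, the count is not read as particular to these members.

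Per length, the order of the members at 0 h also differed between the lines. In HCT116, MALAT1 led with 39.8 ± 5.86 TPM, then DANCR with 31.5 ± 0.515 TPM, PVT1 with 14.2 ± 2.46 TPM, OIP5-AS1 with 11.2 ± 0.864 TPM and TUG1 with 3.26 ± 0.200 TPM. NEAT1 (0.520 ± 0.277 TPM) and H19 (0.453 ± 0.0777 TPM) overlapped in their libraries, and KCNQ1OT1 was last with 0.0367 TPM. In LS180, H19 led with 442 ± 42.2 TPM, then DANCR with 80.1 ± 5.04 TPM, MALAT1 with 18.2 ± 1.24 TPM, OIP5-AS1 with 9.82 ± 1.08 TPM and TUG1 with 7.54 ± 0.682 TPM. PVT1 (5.25 ± 0.0625 TPM) and NEAT1 (1.23 ± 0.115 TPM) followed, and KCNQ1OT1 was at 0.01 TPM. In LS180 no neighbours in this order overlapped at 0 h.

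The tables also give each gene a length that is the mean of its isoforms' lengths weighted by their estimated abundance, so it moves when long and short isoforms change place. The siRNA tables hold 8 isoforms of NEAT1 and 17 of MALAT1 while the actinomycin D experiment has 4 of NEAT1 and 3 of MALAT1, so lengths are compared within an experiment. For NEAT1 it lengthened in HCT116 at 2 h. The isoform-weighted length was 6701, 8894 and 8707 bases at 0 h, 21329, 18675 and 21219 bases at 2 h and 15730, 10215 and 8134 bases at 4 h. The 2 h libraries, at a mean of 20408 ± 1502 bases, lay near the 22743 bases of NEAT1-202 and above every 0 h library, at a mean of 8100 ± 1216 bases (SD, n = 3 each). The exact permutation test over libraries gave a two-sided p = 0.1, the smallest that 3 against 3 allows, and 0.243 after adjustment over 56 length tests, a design that could not pass. Limma on log2 length, fitted across 14447 genes and added after the values were seen, gave a log2 ratio of 1.34 (SE 0.201, adjusted p = 0.00292), where 1.77% of genes were called. At 4 h the HCT116 libraries overlapped those of 0 h (log2 ratio 0.44, limma adjusted p = 0.315).

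In LS180 the NEAT1 length was 5546, 5231 and 5576 bases at 0 h, 6952, 7720 and 5736 bases at 2 h and 6303, 4706 and 5475 bases at 4 h. The 2 h libraries lay above the 0 h libraries by less than in HCT116, and neither time was called (log2 ratios 0.31 and 0.00, limma adjusted p = 0.628 and 1). The difference of the 2 h length change between the lines was 1.03 (SE 0.284) and was not called (limma adjusted p = 0.390, with 0.0761% of genes called). At 0 h the HCT116 libraries lay above the LS180 libraries, again without a call (log2 ratio 0.56, limma adjusted p = 0.0870, with 14.1% of genes called). NEAT1 in TPM, which divides by this length, was 0.84, 0.37 and 0.35 at 0 h, 0.39, 0.29 and 0.31 at 2 h and 0.50, 0.53 and 0.59 at 4 h in HCT116. The TPM libraries of 2 h and 0 h overlapped, whereas their CPM did not. In the siRNA libraries the NEAT1 length was 3465 and 2973 bases in siSTAU1, against 2769 and 2293 bases in siCTRL. Limma called 0 of 12124 genes for length in that comparison (0.00% of genes), with 1066 at an unadjusted p under 0.05. MALAT1 measured 2984 and 2908 bases in siSTAU1, against 2372 and 2272 bases in siCTRL, without overlap and without a call (limma adjusted p = 0.426). With the effective length as an offset, MALAT1 and NEAT1 had log2 fold changes of -0.84 and -0.97 in siSTAU1, and H19 one of 1.19.

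OIP5-AS1 was shorter at 4 h in both lines. In HCT116 its isoform-weighted length was 4132, 3525 and 3088 bases at 0 h, 3059, 2790 and 2626 bases at 2 h and 2804, 2195 and 2412 bases at 4 h. In LS180 it was 4598, 4543 and 4421 bases at 0 h, 3377, 3938 and 3579 bases at 2 h and 3347, 2662 and 2978 bases at 4 h. Every treated library lay below every 0 h library of its line. The 2 h against 0 h log2 ratio was -0.33 in HCT116 (limma adjusted p = 0.209) and -0.32 in LS180 (adjusted p = 0.216, with 2.82% of genes called). The 4 h against 0 h log2 ratio was -0.53 in HCT116 (limma adjusted p = 0.0193, with 4.07% of genes called) and -0.60 in LS180 (adjusted p = 0.00500, with 8.16% of genes called). The HCT116 call was lost without the 0 h library numbered 1 (adjusted p = 0.0795) or 2 (0.0553) and without the 4 h library numbered 2 (0.0836) or 3 (0.0674), while the LS180 call was kept without each library in turn. The long OIP5-AS1-201, which holds the extended miR-7 match shown above, is the only isoform of the gene above 1482 bases.

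MALAT1 lengths moved little, with means of 6320, 6652 and 6731 bases at 0, 2 and 4 h in HCT116 and 6312, 6609 and 6717 bases in LS180. Limma called MALAT1 in LS180 at 4 h (log2 ratio 0.09, adjusted p = 0.0492) and not in HCT116 at 4 h (0.09, adjusted p = 0.0727). DANCR was called longer in HCT116 at 4 h (log2 ratio 0.05, limma adjusted p = 0.0175), and PVT1 was called longer in HCT116 than in LS180 at 0 h (0.12, adjusted p = 0.0157), both lost without single libraries. H19 measured 1944 and 1845 bases in siSTAU1, against 1653 and 1635 bases in siCTRL, without overlap and without a call (limma adjusted p = 0.467). Of its 12 annotated isoforms, 4 hold the miR-675-5p letters shown above. KCNQ1OT1 has 1 isoform of 91667 bases in the tables and so no length to compare.

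**Figure D4:**
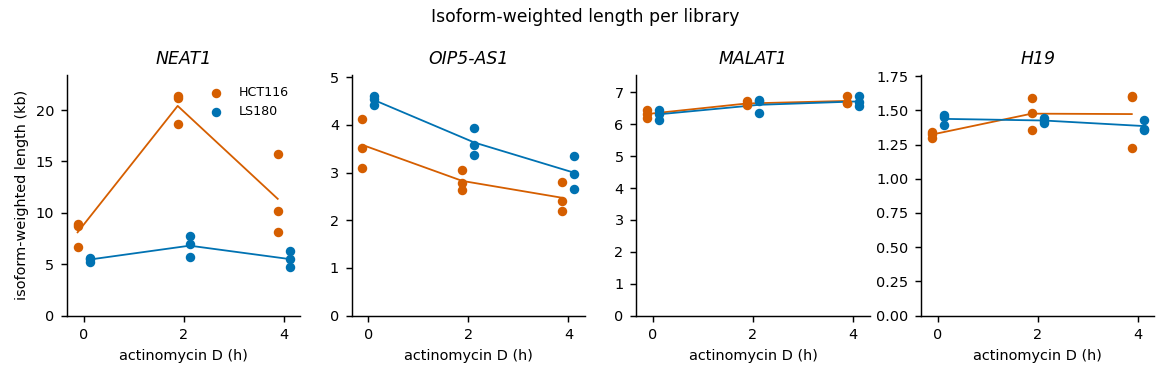
Isoform-weighted length in kb (linear axes from 0) of NEAT1, OIP5-AS1, MALAT1 and H19 against hours of actinomycin D; points are libraries, lines join means of 3, orange HCT116, blue LS180. NEAT1 in HCT116 at 2 h stands at 18675 to 21329 bases, and OIP5-AS1 falls in both lines.

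The nuclear-retained RNAs were set against the cytoplasmic ones as the log2 of the summed TPM of MALAT1, NEAT1 and KCNQ1OT1 over that of H19, OIP5-AS1 and DANCR, given as a value per library with no test. In siSTAU1 the ratio was -5.46 ± 0.0121 and in siCTRL -4.28 ± 0.0278 (SD, n = 2 each), so it was lower by 1.18 and the groups did not overlap. It stayed lower without MALAT1 (-1.26) and without H19 (-1.12). After actinomycin D it was -0.11 ± 0.234, 0.23 ± 0.115 and 0.15 ± 0.355 at 0, 2 and 4 h in HCT116, and -4.77 ± 0.105, -4.54 ± 0.0778 and -4.45 ± 0.428 in LS180 (SD, n = 3 each). In each line the 2 h libraries lay above the 0 h libraries and the 4 h libraries overlapped them. Without MALAT1 the 2 h differences had the opposite sign, -0.72 in HCT116 and -0.71 in LS180, so in TPM the direction at 2 h rested on MALAT1. TPM divides by the isoform-weighted length, which bears on NEAT1 in HCT116. There NEAT1 had means of 0.520 and 0.330 TPM at 0 and 2 h, but 9.26 and 16.5 CPM. The ratio without MALAT1 was not worked out by CPM. HCT116 at 0 h exceeded LS180 by 4.67, and by 2.12 without H19.

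**Figure D5:**
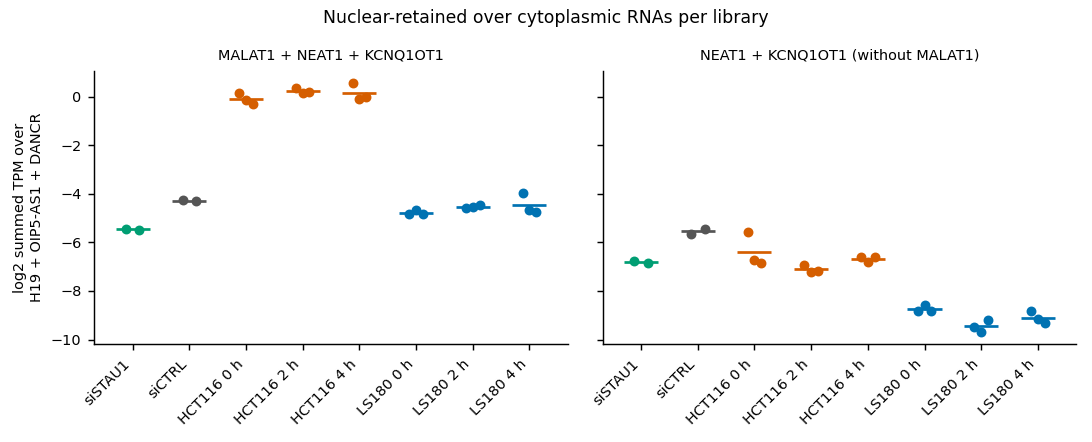
Log2 of summed TPM of nuclear-retained over cytoplasmic members per library (points, bars are group means), with MALAT1 on the left and without it on the right. siSTAU1 lies below siCTRL in both panels, and HCT116 lies above LS180.

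Genes tied to MALAT1 and NEAT1 were counted after actinomycin D as well. Of 15 paraspeckle protein genes, 5 rose and none fell in HCT116 at 2 h, where 13.8% of all genes rose, and 10 rose and none fell at 4 h, where 26.2% of all genes rose, with a median log2 fold change of 0.20 at 4 h against 0.02 over all genes. NONO, a core paraspeckle protein, had 0.46 at 4 h in HCT116 and 0.35 in LS180, and HNRNPK 0.36 in HCT116 and 0.46 in LS180. In LS180, 5 rose and none fell at 2 h (13.5% of all genes rose), and 7 rose and 2 fell at 4 h (26.6% rose and 31.1% fell). Of the 13 processing and speckle genes, 5 rose and 5 fell in HCT116 at 4 h, where 23.7% of all genes fell. In LS180, 2 rose and 7 fell at 4 h. RPP14, named for a subunit of RNase P, had the smallest adjusted p in both lines with log2 fold changes of -0.91 in HCT116 and -1.71 in LS180. With RLE size factors 11 of the 15 paraspeckle genes were higher in HCT116 and 9 in LS180 at 4 h. Over the 17256 genes tested, RLE called 5099 higher in HCT116 and 6044 in LS180. Under scaling to ribosomal protein genes none of the 15 rose and 3 fell in HCT116 and 10 fell in LS180 at 4 h. Over all 17256 genes that scaling called 7283 lower in HCT116 and 10689 in LS180. The paraspeckle median under that scaling was -0.19 in HCT116 and -0.41 in LS180, with the median gene at -0.33 and -0.54. A change of scaling shifts all genes by nearly the same amount, so the distance between these medians is no check.

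Among 37 other known long noncoding RNAs, 31 were tested, and with TMM most of those called fell. At 2 h, 1 rose and 12 fell in HCT116, where 13.8% of all genes rose and 17.1% fell. In LS180 at 2 h, 1 rose and 13 fell, where 13.5% of all genes rose and 23.9% fell. At 4 h, 5 rose and 13 fell in HCT116, where 26.2% of all genes rose and 23.7% fell. In LS180 at 4 h, 9 rose and 11 fell, where 26.6% of all genes rose and 31.1% fell. With RLE the LS180 4 h counts became 10 higher and 9 lower, beside 6044 and 4613 over all genes. MIR17HG, the host of a microRNA cluster, had log2 fold changes of -2.73 at 2 h in HCT116 and -2.16 in LS180, LINC00511 had -0.83 in HCT116 and -1.63 in LS180, and SNHG15 had -0.94 in HCT116 and -0.95 in LS180. Over 1875 other genes marked lncRNA, 66 (3.52%) rose and 189 (10.1%) fell in HCT116 at 2 h. In LS180 at 2 h, 72 (3.84%) rose and 286 (15.3%) fell. Over all genes these shares were 13.8% and 17.1% in HCT116 and 13.5% and 23.9% in LS180. MYC, which lies beside PVT1 and encodes a short-lived mRNA, had -5.04 at 4 h in HCT116 and -5.84 in LS180.

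The genes whose log2 CPM ran most like those of the titled members over the 18 actinomycin D libraries were ranked by Pearson r among 9869 genes averaging at least 5 CPM, with pseudogenes, small RNAs, mitochondrially encoded genes and unnamed clones left out. For MALAT1 they were DCAF7 (r = 0.979), CYFIP2 (r = 0.977) and ERMP1 (r = 0.972), and within lines r for DCAF7 was 0.980 in HCT116 and 0.944 in LS180. For NEAT1 they were PTPRG (r = 0.811), FAM168A (r = 0.810) and TFDP2 (r = 0.786), and r for PTPRG was 0.868 in HCT116 and 0.525 in LS180. For H19 they were AGMAT (r = 1.00), CEACAM5 (r = 1.00) and UGT2B15 (r = 1.00), which share its gap between the lines. Within HCT116, r was 0.759 for AGMAT and an identical -0.39 for CEACAM5 and UGT2B15. An identical r can come from values at the floor, so it is not read as a relation to H19. The points share lines, times and library depth, so these values are descriptions only.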

How the data were processed

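The deposited gene tables of 22 libraries were used. Per the labels' protocols, the kits kept strand and took mRNA in the siRNA experiment but total RNA in the actinomycin D experiment. The submitters' processing notes name cutadapt, STAR 2.7 and RSEM 1.3.1, with hg38 as the build of the siRNA tables and hg19 as that of the others. The expected counts the authors deposited are RSEM estimates that share out ambiguous reads. Their deposited tables also hold TPM, which divide by length, and isoform-weighted and effective lengths in bases. The annotation release is not given in the sources used here, and 99.5% of siRNA and 90.5% of actinomycin D identifiers were in GENCODE 29.

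The experiments were fitted apart and their levels not compared. Expected counts were rounded. The test was edgeR 4.0.16 in R 4.3.3 (TMM, filterByExpr by group, glmQLFit, glmQLFTest, two-sided, Benjamini-Hochberg over all genes, threshold 0.05), on 4 siRNA libraries (14073 genes) and 18 actinomycin D libraries (17256 genes), in 10 comparisons. Lengths were compared by exact permutation and, after the data were seen, with limma 3.58.1. The fits were tested on simulated data. Alternatives were DESeq2 1.42.0, RLE size factors, other filters, effective-length offset, replicate block, library left out, only the groups compared, total size, and ribosomal protein gene scaling.

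The members and lists were chosen with earlier results of these data known. Named were the 8 members, STAU1, up to 4 genes of smallest adjusted p per list, genes beside a member, and the 3 genes of highest r for MALAT1, NEAT1 and H19. Names outside the rule, and those repeated from another comparison, were chosen after their values were seen. Other computations used Python 3.11.15, numpy 2.4.6, pandas 2.3.3, scipy 1.17.1 and matplotlib 3.10.9.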

Additional observations from a re-analysis of the deposited data

How the results depend on the processing

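Of 1318 values of single members under alternatives, 57 lost their call, 55 gained one, 12 turned sign with a call before or after, and 1194 changed no call. Of these 1194, 134 turned sign while uncalled, at up to 0.635 in size. With the effective length as an offset the values that turned sign with a call on either side were OIP5-AS1 at 0.19 (LS180 2 h), 0.48 (LS180 4 h), 0.55 (HCT116 4 h) and 0.15 (HCT116 against LS180), and NEAT1 at -0.59 (HCT116 2 h). Under scaling to ribosomal protein genes they were H19 -0.084, DANCR -0.10 and PVT1 -0.50 (LS180 4 h), OIP5-AS1 -0.22 (HCT116 2 h), PVT1 -0.18 (HCT116 4 h) and OIP5-AS1 0.048 (HCT116 against LS180). Without LS180 4 h library 1, OIP5-AS1 was 0.029 in LS180 at 4 h. The cause was not tested. The number of members called was 5 in LS180 at 2 h with only the groups compared, 2 in HCT116 at 2 h under ribosomal protein scaling, and 3 in HCT116 at 4 h under each of those 2 settings and with total library size. For LS180 4 h against 2 h it was 2 with RLE, 4 with DESeq2 and 3 under either other filter. For the line difference of the 2 h change it was 1 with DESeq2, no filter, the replicate block, only the groups compared or without the HCT116 libraries numbered 1. For that of the 4 h change it was 1 with DESeq2, the offset or without the HCT116 libraries numbered 1, 3 with no filter, and 2 with at least 1 CPM or without LS180 4 h libraries 2 and 3. Leaving out 1 library gave 3 to 5 calls for siSTAU1, 2 to 4 for HCT116 2 h, 3 to 5 for HCT116 4 h, 1 to 2 for LS180 4 h against 2 h, 0 to 1 for HCT116 4 h against 2 h, and 0 to 1 and 0 to 3 for the line differences at 2 h and 4 h.

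The limma length test and the ratio without H19 were added after the data were seen. The nuclear to cytoplasmic ratio differed by -0.86 in siSTAU1 by CPM, by -0.62 and -1.11 with TUG1 and PVT1 in the nuclear or the cytoplasmic class, by -1.26 without MALAT1 and by -1.12 without H19. In LS180 at 2 h it was 0.34 by CPM, 0.0052 with TUG1 and PVT1 nuclear, -0.71 without MALAT1 and 0.39 without H19, and at 4 h -0.36 without MALAT1. In HCT116 it was 0.56 by CPM and -0.72 without MALAT1 at 2 h, and 0.59 and -0.29 at 4 h. For HCT116 against LS180 it was 4.45 and 4.21 with TUG1 and PVT1 in the nuclear or the cytoplasmic class, 2.36 without MALAT1 and 2.12 without H19.

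The correlation of deviations between libraries of the same number was -0.0556 for siRNA, with a median of 0.0196 over all actinomycin D pairs. Within HCT116 all 9 pairs were positive, between 0.0849 and 0.325, and 8 of 9 correlated best with their own number, against 4 of 9 within LS180, a hint from the data and not from the design. With the replicate block, NEAT1 was called for the line difference at 2 h (0.94, adjusted p = 0.00805) and TUG1 in siSTAU1 (-0.08, adjusted p = 0.0201), and no other call of a member changed. RLE scaling put the median of all genes 0.12 above 0 in LS180 at 4 h and the higher and lower calls of LS180 at 2 h at 4863 and 3364, against 2329 and 4121 with TMM. Low counts limit KCNQ1OT1 in the siRNA libraries. The lone library left in a group of 2 was assumed to vary like the others.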

Other observations

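H19 stood at 13.3 TPM in the siCTRL libraries of LS180 and at 442 TPM in LS180 at 0 h of the actinomycin D experiment, values from libraries that differ in RNA selection, build and isoform models and that were not compared. Genes next to the members gave 5 higher and 2 lower calls in HCT116 at 4 h and 7 higher and 5 lower in LS180, of 17 tested, where over all genes 26.2% were higher and 23.7% lower in HCT116 and 26.6% higher and 31.1% lower in LS180. FRMD8, which lies beside NEAT1, had log2 fold changes of -0.86 in HCT116 and -1.67 in LS180 at 4 h (edgeR adjusted p = 3.63e-06 and 4.06e-10), while OIP5, beside OIP5-AS1, had 0.46 in HCT116 and 0.37 in LS180. At 0 h the H19 and IGF2 network held 6 genes higher and 4 lower in HCT116 against LS180, among them PLAGL1 at 5.24 and IGF2BP2 at 1.81 on the log2 scale. Of the 13 processing and speckle genes, 11 were higher and none lower in HCT116 at 0 h, with a median of 0.42 against -0.10 over all genes. In this comparison 33.7% of all genes were called higher and 42.6% lower in HCT116. HOTTIP, a long noncoding RNA of the HOXA cluster, had a log2 fold change of -6.75 in HCT116 against LS180 at 0 h.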
